A study of Mus musculus with 56 samples.

Results

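The nuclear genes that encode the subunits of the mitochondrial respiratory chain and ATP synthase were followed through mouse medulloblastomas, transplanted N-myc tumours, cultured neural stem cells and normal cerebellum. Members were all genes whose symbol names a subunit of complex I (Nduf), complex II (Sdh), complex III (Uqcr), complex IV (Cox) or complex V (Atp5), together with cytochrome c (Cycs). A probe counted only if the probe annotation gave it a single gene symbol, and a gene was represented by its probe of highest mean. There were 68 such genes among the 15224 genes on the array: 30 of complex I (6 core, 24 accessory), 4 of complex II, 8 of complex III, 13 of complex IV, 12 of complex V and Cycs. Of the 68, 67 had a value on every array. Cox7b2, a subunit form known mainly from testis, was blank on 15 arrays and at 3.36 to 4.00 on the rest, below the level of 6.30 used as a limit for testing, and it was not tested. None of the 13 subunits encoded in mitochondrial DNA had a probe among the genes, so only the nuclear-encoded part of each complex was measured. Cox7a1, Cox6b2 and Cox8c were not analysed here.

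Complexes I and II pass electrons from NADH and succinate to ubiquinone, complex III passes them on to cytochrome c, and complex IV passes them to oxygen. The protons pumped on the way drive complex V, the ATP synthase, so the chain is the main source of ATP in neurons and in heart and skeletal muscle. Several subunits exist in tissue forms encoded by separate genes, among them the muscle forms Cox6a2 and Cox8b and the widely expressed forms Cox6a1 and Cox8a, and many subunit promoters are known to bind the nuclear respiratory factor NRF1.

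RNA from 56 samples of FVB/N mice was measured on Affymetrix whole-transcript arrays, and values are log2 levels as the authors deposited them. The GTML mouse carries a MYCN transgene under tetracycline control, driven from a glutamate transporter (Glt1) promoter, and 32 of its medulloblastomas were measured. The control tissue was normal cerebellum of GTML mice at postnatal day 7 (P7, n = 5), on doxycycline to hold the transgene off. A further 9 orthotopic tumours grew after transplantation of neural stem cells (NSCs) transduced with a stabilised N-myc mutant, 3 each from cerebellum at embryonic day 16 (E16C), cerebellum at postnatal day 0 (P0C) and forebrain at postnatal day 0 (P0F). Cultures had 1 array each: tumour-derived cells (from E16C, P0C, P0F and GTML tumours), NSCs with N-myc T58A (E16C and P0C), and GFP control NSCs (E16C, P0C sorted for GFP, P0C unsorted, and P0F). In the titles of the tumour-derived cells, the E16C and P0C sources are named MB and the P0F source glioma.

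GTML tumours and P7 cerebella were labelled by one protocol and the transplanted tumours and cells by a different one, per the labels, so that any difference between these sets cannot be told apart from labelling. Titles number the tumours and cerebella as biological replicates, without saying if tumours of the same origin came from separate NSC cultures. The p-values measure the spread between these samples, and the number of arrays limits their precision. These are bulk samples, in which fewer cells of a type and less RNA per cell cannot be told apart. Array medians lay between 7.86 and 8.25. The P7 cerebella held mature neuron markers at a mean level of 10.57 to 11.07. Skeletal muscle markers were highest on 2 arrays: GTML tumour 22, whose mean over 6 muscle genes was 13.51, and E16C tumour 3, at 9.23. The next were GTML tumours 19, 14 and 21 at 8.51, 8.10 and 7.71, and the lowest of the 56 arrays stood at 6.39. Results that rest on tumour 22 or E16C tumour 3 are therefore given with and without them. The mean level over the 67 subunit genes was 10.36, 10.33, 10.26, 10.35 and 10.32 in the 5 P7 cerebella. It ran from 10.04 in GTML tumour 31 to 10.60 in GTML tumour 1, and GTML tumour 22 stood alone at 11.60. The orthotopic tumours gave 10.32, 10.21 and 10.66 (E16C), 10.51, 10.28 and 10.59 (P0C) and 10.04, 10.10 and 10.12 (P0F). The cultured cells lay between 10.31 and 10.90, with the P0F GFP NSCs highest.

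**Figure D1:**
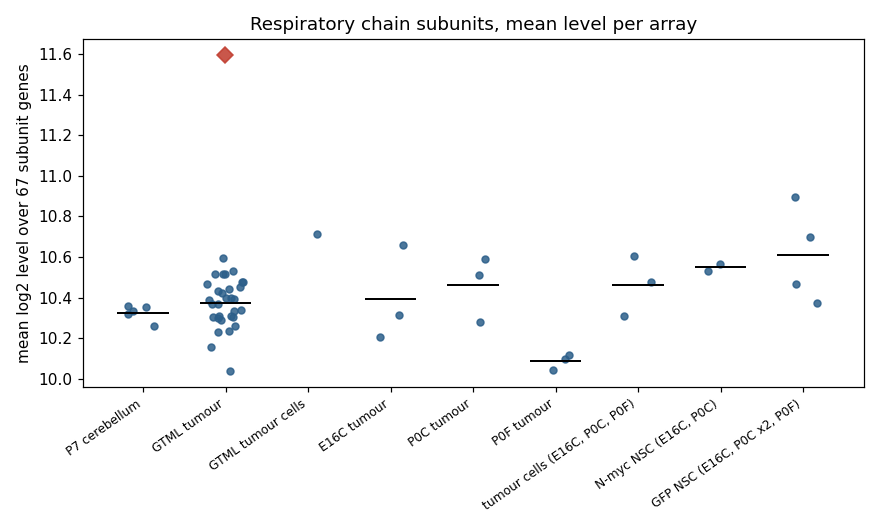
Mean log2 level over the 67 respiratory chain genes without blanks, 1 point per array, in each sample group. Horizontal lines are group means without GTML tumour 22, which is the red diamond at 11.60, while the other 31 GTML tumours lie between 10.04 and 10.60 and the 3 P0F tumours between 10.04 and 10.12.

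The promoters of 4 members on which the results turn are printed first: the forms of complex IV that moved apart in GTML tumour 22 (Cox6a1, Cox8a and Cox8b), and Ndufb4, the complex I accessory subunit with the smallest p between forebrain and cerebellar tumours. They come from RefSeq (GRCm38.p6) and span 250 bases before to 50 bases after the gene start, read 5′ to 3′ on the minus strand, which is the strand of all 4 genes. Capitals mark matches, on either strand, to CGCNTGCGC (the core of the NRF1 site), CCGGAAG (the ETS site bound by GABPA), or CAGCTG (an E-box of the muscle bHLH factors). Cox6a1 lies at chr5:115348909-115349208, Cox8a at chr19:7217567-7217866, Cox8b at chr7:140900397-140900696 and Ndufb4 at chr16:37654319-37654618. Cox6a1 held 3 NRF1 matches, 2 of which overlap on opposite strands of the same stretch, and 1 ETS match, Cox8a held 2 ETS matches, Ndufb4 held 3 NRF1 matches, and Cox8b held none of these but 2 CAGCTG boxes.
Cox6a1: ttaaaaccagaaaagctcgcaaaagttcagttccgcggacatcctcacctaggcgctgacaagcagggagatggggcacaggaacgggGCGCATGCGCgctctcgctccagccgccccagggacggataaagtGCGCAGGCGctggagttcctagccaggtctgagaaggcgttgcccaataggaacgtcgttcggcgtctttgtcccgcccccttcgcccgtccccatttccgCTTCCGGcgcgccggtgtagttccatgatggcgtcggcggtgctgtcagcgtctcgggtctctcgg
Cox8a: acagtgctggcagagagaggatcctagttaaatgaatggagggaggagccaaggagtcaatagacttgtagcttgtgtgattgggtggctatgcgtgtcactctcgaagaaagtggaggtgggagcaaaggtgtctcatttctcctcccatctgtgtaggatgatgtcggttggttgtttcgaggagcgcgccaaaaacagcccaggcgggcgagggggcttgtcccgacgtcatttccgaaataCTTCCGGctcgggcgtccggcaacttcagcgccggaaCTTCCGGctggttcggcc
Cox8b: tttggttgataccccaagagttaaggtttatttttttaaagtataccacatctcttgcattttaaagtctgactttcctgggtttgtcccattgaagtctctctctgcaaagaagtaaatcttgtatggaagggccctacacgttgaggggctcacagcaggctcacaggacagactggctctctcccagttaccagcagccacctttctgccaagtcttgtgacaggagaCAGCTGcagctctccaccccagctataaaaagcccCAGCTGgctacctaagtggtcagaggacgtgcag
Ndufb4: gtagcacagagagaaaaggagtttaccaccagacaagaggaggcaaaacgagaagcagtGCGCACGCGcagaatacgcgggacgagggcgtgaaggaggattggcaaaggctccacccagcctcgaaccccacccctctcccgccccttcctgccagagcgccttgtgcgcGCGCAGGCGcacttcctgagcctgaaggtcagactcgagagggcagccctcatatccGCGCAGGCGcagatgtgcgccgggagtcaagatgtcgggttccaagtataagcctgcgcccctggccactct

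Promoters of 56 of the 68 members were at hand in the RefSeq table. NRF1 matches were present in 15 of the 56 (26.8%) against 7.03% of 27025 genes, ETS matches in 13 (23.2% against 9.93%) and AAGATGGC, the site of YY1, in 8 (14.3% against 3.19%). CAAGGTCA, the site of the oestrogen-related receptor ERRalpha, was in 2 (3.57% against 1.76%). CACGTG, the E-box that Myc proteins bind, was in 5 (8.93% against 8.09%), CAGCTG in 5 (8.93% against 18.3%), and CTAAAAATA, a MEF2 site, in 0 (against 0.588%). Both strands were searched, and a match is a description of letters in the window.

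GTML tumour 22 held most respiratory chain genes above all other GTML tumours. In complex IV, the muscle forms Cox6a2 and Cox8b lay above them and the widely expressed forms Cox6a1 and Cox8a below. Of the 67 members, 59 were above every one of the other 31 tumours (88.1%, where 25.5% of 12929 genes were) and 2 were below every one (2.99%, where 20.7% of genes were). The median difference from the median of the other 31 was 1.14 over the members and 0.06 over all genes. This is a single array, so there is no test, and these values describe that library.

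The muscle forms showed the widest gaps. Cox8b stood at 13.30 in tumour 22, against a lowest, median and highest of 5.04, 5.71 and 6.48 in the other 31, a gap of 7.60 or 193-fold. The median of the others lies below 6.30, where background can hold a probe up. Cox6a2 stood at 13.06, against 7.63, 8.00 and 8.54, which is 33.4-fold above that median. The 2 members below all others were the matching widely expressed forms: Cox6a1 stood at 9.74, against 10.35, 10.92 and 11.45 (difference -1.18), and Cox8a at 11.38, against 12.13, 12.37 and 12.89 (difference -0.99). Both pairs of forms thus lay in opposite directions from the other tumours on this array. A part of promoter motifs in this was not tested, and no promoter of Cox6a2 was at hand. In E16C tumour 3, the array with the next highest muscle score, Cox6a2 was at 8.55 beside 8.06 and 7.97 in E16C tumours 1 and 2, and Cox8b at 6.47 beside 5.82 and 6.14. The mean of Cox6a2 was as high or nearly so elsewhere. It was 8.73 in P0F tumours, whose muscle scores were 6.65, 6.72 and 6.60, and 8.50 in GFP NSCs. Cox8b was also above 7 in P0C tumour 2 (7.83), the unsorted P0C GFP NSCs (7.35) and the P0F GFP NSCs (8.36), arrays whose muscle scores were 6.62, 6.96 and 6.61.

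**Figure D2:**
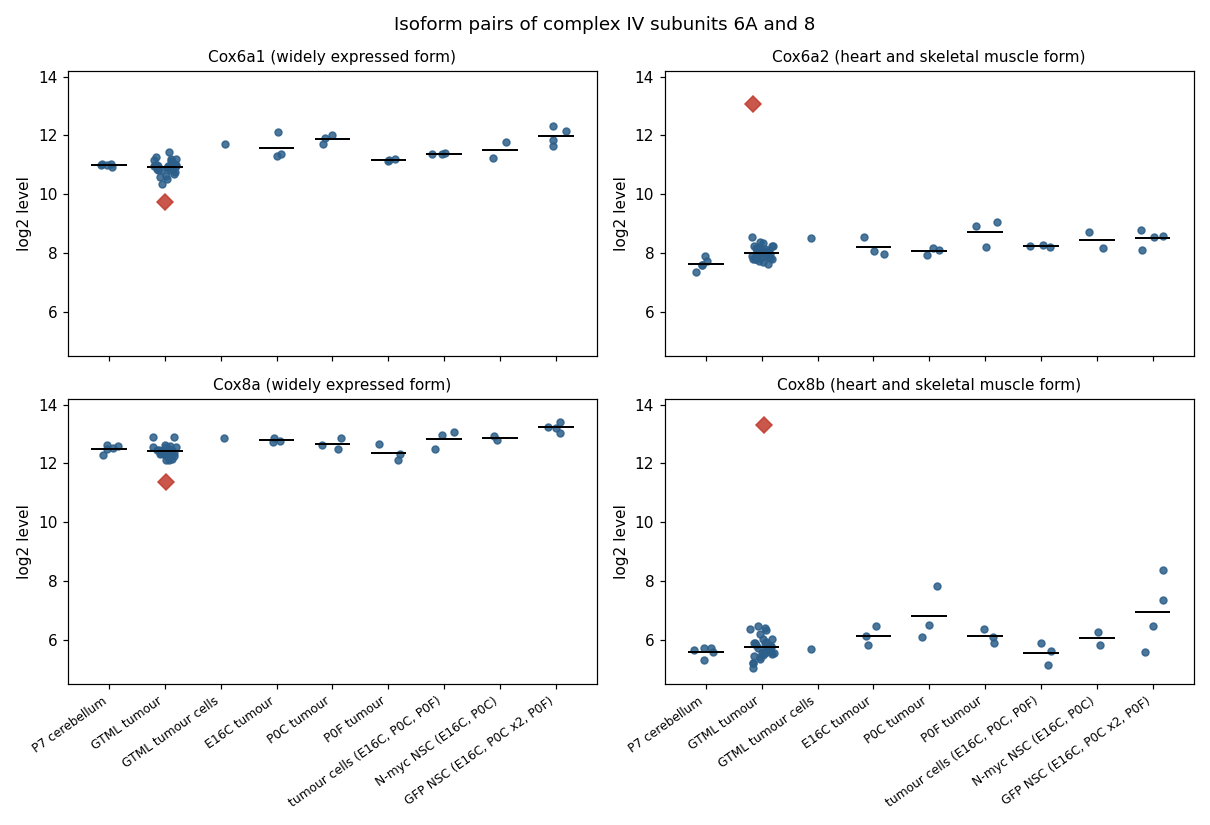
Log2 levels of Cox6a1, Cox6a2, Cox8a and Cox8b in every array by sample group, with group means without tumour 22 as lines. The red diamond is GTML tumour 22, at 13.06 for Cox6a2 and 13.30 for Cox8b, and at 9.74 for Cox6a1 and 11.38 for Cox8a, below all other GTML tumours.

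By complex, tumour 22 was above all others in 28 of 30 complex I genes, 4 of 4 complex II genes, 8 of 8 complex III genes, Cycs, 9 of 12 complex IV genes and 9 of 12 complex V genes. The median difference was 1.29 for complex I, 1.23 for complex II, 1.29 for complex III, 0.69 for complex IV and 0.76 for complex V. Atp5g1, which encodes the c subunit of the ATP synthase rotor, stood at 12.70 against 9.89 to 10.96. Ndufb10, an accessory subunit of the membrane arm of complex I, stood at 9.05 against 6.49 to 7.51. Cycs, the soluble carrier between complexes III and IV, stood at 11.66 against 9.18 to 10.78. In each of these the array lay outside the whole range of the other tumours.

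Among the redox and core subunits of the chain, the iron-sulfur subunit Sdhb stood at 12.19 against 9.72 to 10.82. The flavoprotein Sdha differed from the others' median by 1.25, the membrane anchors Sdhc and Sdhd by 1.00 and 1.21, and the Rieske protein Uqcrfs1 by 1.45. The complex III core proteins Uqcrc1 and Uqcrc2 differed by 1.12 and 0.97, and the iron-sulfur subunit Ndufs1 of complex I by 1.06. Ndufv1, the complex I subunit that binds NADH, stood at 12.03 against 10.45 to 11.26. The catalytic F1 subunits of complex V moved less: Atp5a1 (alpha) differed by 0.63 and Atp5b (beta) was at 13.87, within the 13.58 to 13.94 of the others. The remaining members inside the others' range were Atp5g2, Atp5md, Cox7a2, Ndufc2 and Ndufv3, the first of which encodes the same mature c subunit as Atp5g1.

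**Figure D3:**
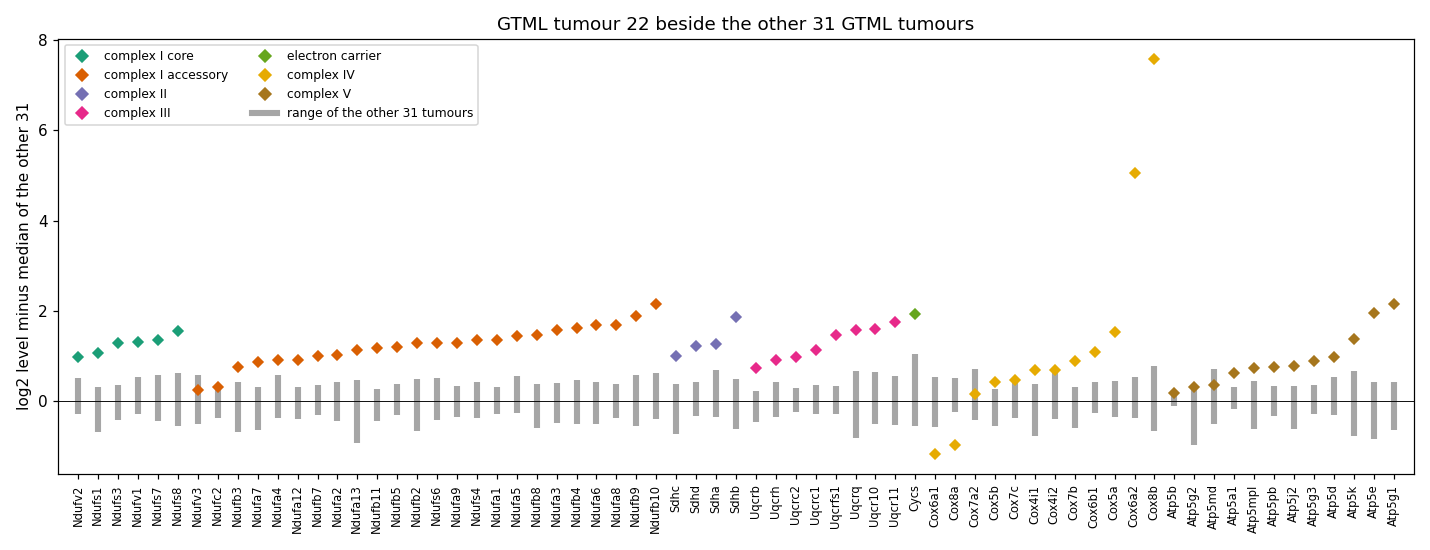
Difference between GTML tumour 22 and the median of the other 31 GTML tumours for each respiratory chain gene, ordered and coloured by complex, in log2 units. Grey bars are the range of the other 31 tumours, and points lie outside them in 61 of 67 genes, with Cox8b and Cox6a2 farthest above and Cox6a1 and Cox8a below.

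Other measures of this library are given beside all 12929 genes, of which 25.5% lay above all other tumours and 20.7% below. Their part in the result was not tested. All 6 measured muscle markers, of 8 listed, lay above all other tumours (median difference 6.69): the creatine kinase Ckm at 14.26, the skeletal actin Acta1 at 14.06 against 6.80 to 9.83, the cardiac actin Actc1 at 13.34 against 6.03 to 7.18, and the sarcomere proteins Myl1 (13.07), Tnnt3 (13.33) and Tnni2 (13.00). Regulators of mitochondrial biogenesis were near these shares, with 4 of 18 above all others (22.2%), 5 below (27.8%) and a median of -0.09. The coactivator Ppargc1a stood at 11.15 against 5.18 to 9.13, while Gabpb1, a partner of the ETS factor GABPA, stood at 7.98 against 9.11 to 10.26. The enzymes of the citric acid cycle and pyruvate dehydrogenase, which feed the chain with NADH and succinate, were above all others in 15 of 16 (median difference 1.29). Assembly factors were above in 6 of 12 for complex I and 15 of 21 for complexes II to V. The mitochondrial ribosome was above in 32 of 73 (43.8%, median 0.22). Mitochondrial import proteins and chaperones were above in 3 of 15 (20%, median -0.31), near the share of all genes. Cell cycle genes had a median difference of -3.43, with 0 of 9 above and 1 below all others. Mature neuron markers had a median difference of -0.15, with 1 of 11 above all others (Pvalb, a calcium-binding protein also found in fast muscle, at 13.84 against 5.37 to 12.57) and 2 below, among them the vesicle protein Snap25 at 8.79 against 11.03 to 13.68. Endothelial markers had a median difference of 1.58, with 2 of 7 above all others (28.6%, near the share of all genes).

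Between the other tumours the chain varied little. The median SD of a member was 0.21 over the 31 tumours without number 22 and 0.29 over all 32, beside 0.28 and 0.32 over all genes, and 57 of 67 members lay below the all-gene median over the 31. The beta and alpha subunits of F1 varied least with the complex III core protein Uqcrc2 (SD 0.07 for Atp5b, 0.11 for Atp5a1 and 0.13 for Uqcrc2). Cox8b (0.36), Ndufb2 (0.33) and Atp5k (0.33) varied most. Correlations between pairs of members were mostly positive. Their median was 0.61 over 32 tumours and 0.32 over 31, and they were above 0 in 93.7% and 87.5% of pairs. These correlations are across tumours that share labelling and scaling, and they are given as a description. No value for pairs of other genes stands beside them, so they do not set the chain apart. Tumour 31 was the lowest tumour in 26 members, tumour 21 in 7, tumour 18 in 6 and tumour 20 in 5. The share of all genes in which each tumour was lowest is not given here, so these counts do not set the chain apart.

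Over all 32 tumours, the genes outside the chain whose levels followed the mean of the members most closely were Mief2 (Pearson r = 0.92), Ech1 (0.92), Wfs1 (0.91), Pdhx (0.90) and Fastk (0.90). These rested on tumour 22: over the other 31 the list became Ndufab1 (0.84), Emc4 (0.80), Rheb (0.76), Mfge8 (0.75) and Derl1 (0.75). Ndufab1 is itself a complex I subunit, the acyl carrier protein, whose symbol the rule did not take in. The correlation of the members' mean with the muscle score was 0.83 over 32 tumours and 0.06 over 31. With the citric acid cycle score it was 0.88 and 0.45, and with the glycolysis score 0.26 and 0.53. Cell type scores related about as strongly over the 31: microglia and macrophage markers gave -0.37 and -0.46, and granule neuron precursor markers -0.11 and 0.37. With assembly factors of complexes II to V it was 0.87 and 0.51. The part of cell content in these correlations was not tested.

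Whether the chain differs between N-myc tumours and normal cerebellum was asked with GTML tumours against P7 cerebella. It differed little and in both directions: 11 members were higher and 4 lower in tumours by limma at an adjusted p of 0.05. None differed by 2-fold (15.2% of all genes did), and 0 of 67 were without overlap between the groups (10% of all genes). The 15 called members are 22.4% of the 67, where 57.7% of 12275 genes were called (32.9% higher and 24.8% lower); the unadjusted p was under 0.05 in 18 (61.8% of genes). The median difference was 0.08 over the members and 0.10 over all genes, and the median size of a difference was 0.15 against 0.40. The count depends on scaling. With arrays centred on their medians, the median of all genes was 0.25 in place of 0.10. In that fit 22 members were higher and 0 lower, with a member median of 0.23. Its share of all genes called is not given here. Without tumour 22, 15 of 66 were higher and 8 lower (34.8%, where 64.6% of 12223 genes were called, 37.1% higher and 27.6% lower), the member median was 0.04, and Cox8b was no longer above the limit for testing.

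Higher in tumours were 2 complex V, 3 complex IV and 6 complex I genes. Atp5g2, a c subunit gene of the ATP synthase rotor, was 10.60, 10.84, 10.72, 10.86 and 10.95 in cerebella and 10.38, 11.35 and 11.66 in tumours (lowest, median, highest), a rise of 0.51 (SE 0.12, limma adjusted p = 0.000429). Cox4i1, the regulatory subunit IV form of most tissues, was 11.00, 11.07, 10.86, 10.81 and 10.77 in cerebella and 10.52, 11.30 and 11.99 in tumours, a rise of 0.40 (SE 0.12, limma adjusted p = 0.0041). Ndufa7, an accessory subunit of complex I, was 8.37, 8.41, 8.11, 8.49 and 8.33 in cerebella and 8.25, 8.89 and 9.75 in tumours, a rise of 0.50 (SE 0.14, limma adjusted p = 0.00366). In all 3 the upper tumours lay above the cerebella and the lowest tumours within or below their range. The other higher members were Atp5mpl (0.40), Ndufv3 (0.39), Cox7b (0.36), Ndufb3 (0.35), Cox7c (0.33), Ndufs1 (0.33), Ndufv1 (0.31) and Ndufb7 (0.31).

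Lower in tumours as deposited were 3 complex I accessory genes and the delta subunit of F1, Atp5d, and with centred arrays none of these 4 passed. Ndufa1, an accessory subunit needed to assemble the membrane arm of complex I, was 9.42, 9.53, 9.45, 9.35 and 9.41 in cerebella and 8.69, 9.00 and 10.35 in tumours (difference -0.40, limma adjusted p = 0.011). Its highest tumour was number 22, and the other 31 reached at most 9.29, so that without it the groups did not overlap (difference -0.44, limma adjusted p = 2.91e-05), the 1 member of 66 for which this held (lower without overlap in 7.35% of all genes). Ndufa4, first described in complex I and now usually counted with complex IV, was 12.36, 12.37, 12.28, 12.28 and 12.32 in cerebella and 11.56 to 12.51 in tumours other than 22, with tumour 22 at 12.84 (difference -0.34, limma adjusted p = 0.0119). Ndufa3 (-0.40) and Atp5d (-0.35) were the others. Most tumours were below the cerebella in these genes, with an overlap at the upper end.

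Complex II, complex III and Cycs had no called member with all tumours. Without tumour 22, complex III had Uqcr10 higher (0.31, limma adjusted p = 0.0443) and Uqcrb lower (-0.25, limma adjusted p = 0.0163), and Cycs was lower. The differences were 0.09 for Sdha, 0.13 for Sdhb, 0.15 for Sdhc, -0.07 for Sdhd, 0.15 for Uqcrc1, -0.05 for Uqcrc2 and 0.07 for Uqcrfs1. Cycs was 10.33, 9.98, 10.10, 10.09 and 10.01 in cerebella and 9.18 to 10.78 in tumours other than 22 (difference -0.31, limma adjusted p = 0.183, and -0.37, limma adjusted p = 0.015, without tumour 22). Atp5b was 13.65 to 13.70 in cerebella and 13.58 to 13.94 in tumours (difference 0.03), and Atp5a1 differed by -0.05. The other paired forms differed by -0.11 (Cox6a1), -0.12 (Cox8a), 0.09 (Cox4i2), 0.05 (Cox7a2), 0.07 (Atp5g1) and -0.02 (Atp5g3). Cox6a2 was not called with all tumours (0.54, limma adjusted p = 0.251) and rose without tumour 22 (0.38, limma adjusted p = 0.00194), and Cox8b had a difference of 0.39 (limma adjusted p = 0.599) that rested on tumour 22.

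Genes that build and maintain the chain were counted beside its subunits, whose median was 0.08, and beside all genes, of which 32.9% were higher and 24.8% lower. The mitochondrial ribosome, which translates the subunits encoded in mitochondrial DNA, had 42 of 73 genes higher and 1 lower (median 0.36), led by Mrps9 (1.03), Mrpl15 (0.99) and Mrpl34 (0.94), with Mrps35 lower (-0.50). Import proteins and chaperones had 10 of 15 higher and 0 lower (median 0.64), led by Hspa9 (1.14) and Hspd1 (1.12), the mitochondrial Hsp70 and Hsp60, and Timm8a1 (0.85). Regulators of mitochondrial biogenesis had 9 of 18 higher and 1 lower (median 0.32). Pprc1, a coactivator of the Ppargc1 family, rose by 1.19, the polymerase subunit Polg2 by 0.95 and the helicase Twnk by 0.90, while Ppargc1a itself fell by 2.16 (limma adjusted p = 0.00101). Assembly factors were higher in 5 and lower in 1 of 12 for complex I (Nubpl 0.80, Ndufaf3 -0.50) and higher in 10 and lower in 1 of 21 for complexes II to V (Bcs1l 0.93, Cox17 0.83, Coa3 -0.33). Citric acid cycle and pyruvate dehydrogenase genes were higher in 1 and lower in 3 of 16 (Fh1 0.60, Sucla2 -1.08, Suclg2 -1.03, Cs -0.39), and glycolysis genes higher in 2 and lower in 3 of 13 (Pkm 0.48, Pgk1 0.32, Aldoc -3.01, Ldhb -1.29, Pfkp -1.24). Without tumour 22, 37.1% of genes were higher and 27.6% lower. Citric acid cycle and pyruvate dehydrogenase genes were then higher in 1 and lower in 7 of 16. Assembly factors of complexes II to V were higher in 14 and lower in 1, and glycolysis genes higher in 4 and lower in 3. Complex I assembly factors had 5 higher and 2 lower, the ribosome 44 and 1, import proteins and chaperones 10 and 0, and biogenesis regulators 11 and 2. No test set these lists against the subunits.

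Markers of other cells moved in the same comparison, and their part in the differences was not tested. Neuron markers were lower in 10 of 11 (median -3.11), astrocyte markers in 6 of 6 (median -3.23), oligodendrocyte markers in 6 of 6, granule neuron precursor markers in 5 of 6 and endothelial markers in 3 of 7. Microglia markers were higher in 4 and lower in 1 of 7. Tumours 20 and 30 held mature neuron markers at a mean of 11.68 and 11.69, above all P7 cerebella (10.57 to 11.07), and astrocyte markers at 11.23 and 11.27, with cell cycle markers at 6.17 and 8.60. Tumour 31 had an astrocyte score of 6.02. Without tumours 20, 22, 30 and 31, 18 members were higher and 11 lower, and the share of all genes called in that fit is not given here.

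**Figure D4:**
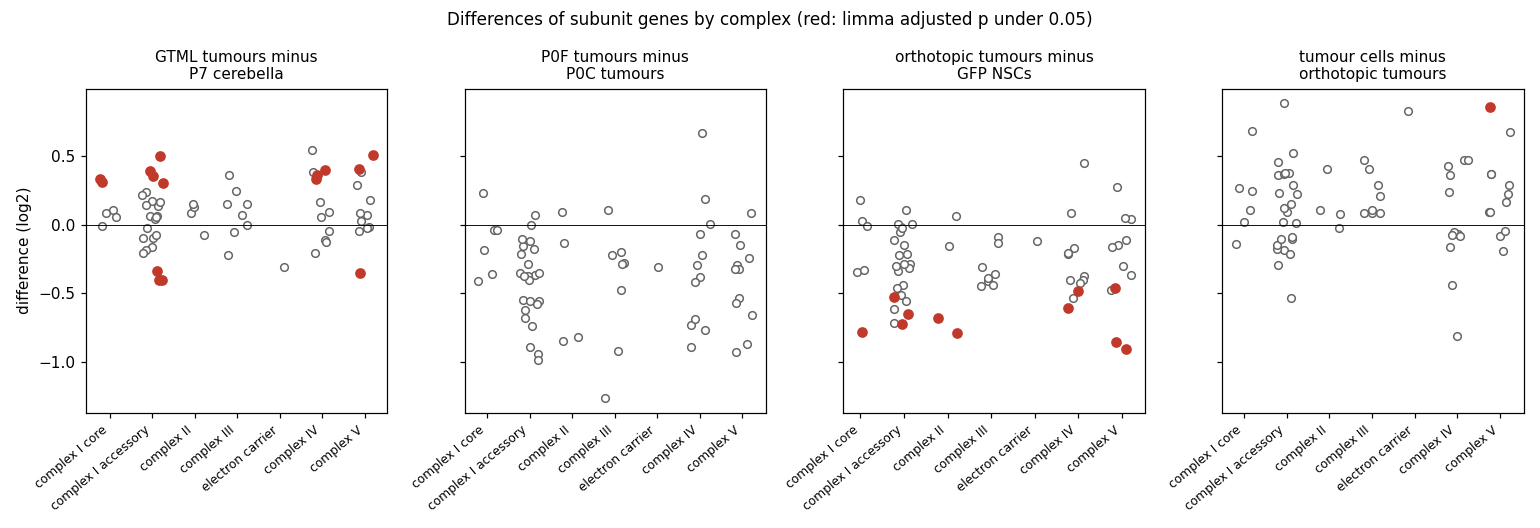
Difference in log2 level of each respiratory chain gene, grouped by complex, in 4 comparisons. Red points have a limma adjusted p under 0.05: 15 of 67 for GTML tumours minus P7 cerebella, 0 for P0F minus P0C tumours, 11 (all lower) for orthotopic tumours minus GFP NSCs, and 1 (Atp5md) for tumour cells minus orthotopic tumours.

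The age of the cerebellar NSC of origin was asked with P0C against E16C tumours. No member was called by limma (0 of 67, where 0.762% of 11549 genes were), and 2 had an unadjusted p under 0.05, Uqcrc2 (-0.55) and Uqcrq (0.75). The differences ran from -0.55 to 0.75 with a median of 0.02, beside -0.03 over all genes, and the median ran from -0.05 to 0.13 when a tumour was left out. E16C tumour 3 holds muscle markers, and without it Sdhb passed (1.18, limma adjusted p = 0.0399): Sdhb was 9.88 and 9.47 in E16C tumours 1 and 2, 10.94 in E16C tumour 3, and 10.99, 10.62 and 10.94 in P0C tumours. Oligodendrocyte markers were higher in 3 of 6 in P0C tumours (Ugt8a 4.26, Cnp 4.21, Mbp 3.68).

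Region of origin was asked with P0F, or forebrain, against P0C tumours. Titles of the tumour-derived cells name the P0F source glioma and the P0C source MB, so region and tumour type cannot be told apart. No single member passed the test, but 59 of the 67 lay lower in forebrain tumours (49.9% of all genes did), with a median difference of -0.35 against 0.00 over all genes. By limma 0 of 67 were called (1.31% of 11633 genes were), while 18 had an unadjusted p under 0.05 (16.6% of all genes did). In 29 members all 3 P0F tumours lay below all 3 P0C tumours (12.4% of all genes), and in 2 they lay above (13.3%), Cox6a2 by 0.67 and Ndufs3, a core subunit of complex I, by 0.23. Differences were negative in 28 of 30 complex I, 3 of 4 complex II, 7 of 8 complex III, 9 of 12 complex IV and 11 of 12 complex V genes, and in Cycs (-0.30). The members' mean level was 10.04, 10.10 and 10.12 in P0F and 10.51, 10.28 and 10.59 in P0C tumours, without overlap. The median was -0.43 to -0.26 when each tumour was left out in turn, -0.35 with centred arrays and -0.30 after quantile normalization. There were 0 calls each time. In culture the P0F arrays were not lower: the members' mean was 10.90 in P0F GFP NSCs and 10.47 and 10.38 in sorted and unsorted P0C GFP NSCs. Tumour cells stood at 10.60 (P0F) and 10.48 (P0C), and these single arrays were not tested.

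The members described next were chosen after their values were seen. Uqcr10, a small accessory subunit of complex III, was 9.48, 8.91 and 9.15 in P0F and 10.36, 10.18 and 10.78 in P0C tumours (difference -1.26, SE 0.35, limma adjusted p = 0.122). It was the 1 member of 67 with a difference of 2-fold or more, where 8.7% of all genes had one. Ndufb4, whose promoter with 3 NRF1 matches is printed above, was 10.10, 10.41 and 10.01 against 11.07, 10.97 and 11.30 (difference -0.94, SE 0.21, limma adjusted p = 0.066). Ndufb9, a further accessory subunit of the membrane arm, differed by -0.99 (limma adjusted p = 0.183). The groups did not overlap in any of these.

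Among the paired forms and fixed subunits, Atp5g2 was 10.79, 10.98 and 10.82 in P0F and 12.09, 11.53 and 11.56 in P0C tumours (difference -0.86, limma adjusted p = 0.147). Sdhc was 9.47, 9.78 and 9.82 against 10.48, 10.15 and 10.88 (difference -0.81, limma adjusted p = 0.13), and Sdhb was 10.04, 9.90 and 10.07 against 10.99, 10.62 and 10.94 (difference -0.85, limma adjusted p = 0.259). Cox6a1 was 11.12, 11.15 and 11.18 against 11.93, 12.01 and 11.71 (difference -0.73, limma adjusted p = 0.176). All 4 were lower in every forebrain tumour. Sdha (-0.13), Sdhd (0.09), Uqcrc1 (-0.22), Uqcrc2 (0.11), Ndufv1 (-0.04) and Ndufa4 (0.07) had smaller differences, and Atp5b differed by -0.29. Oligodendrocyte markers were lower in 2 of 6 in forebrain tumours (Ugt8a -3.89, Mbp -3.62, list median -3.07), and their mean was 7.22, 7.32 and 7.66 in P0F and 11.42, 8.76 and 10.47 in P0C tumours. Their part in the shift of the chain was not tested. The mitochondrial ribosome had a median difference of -0.23.

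The 9 orthotopic tumours were set against 4 GFP control NSC arrays, 2 of them the sorted and unsorted P0C cells, which the labels do not show to be separate cultures. The fit was a model of 18 arrays with origin as an additive term, so the differences can depart slightly from those of the group means. Tumours held less of 11 members and more of none (16.4% of 67 called lower, where 7.34% of 11999 genes were lower, 4.31% higher and 11.7% called in either direction), and 22 had an unadjusted p under 0.05 (28.1% of genes). The median difference was -0.31 over the members and -0.05 over all genes, 56 of 67 were negative (55.3% of all genes), and 3 were lower without overlap (3.39% of all genes): Atp5d, Cox8a and Ndufs8. The called members were 3 of complex V, 2 of complex IV, 2 of complex II and 4 of complex I. Complex III had none, though all 8 of its differences were negative (-0.44 to -0.09).

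Atp5md, a small membrane subunit of the ATP synthase that helps its dimers form, was 11.25, 9.98 and 10.75 in E16C, 10.72, 10.34 and 10.63 in P0C and 10.62, 10.52 and 10.81 in P0F tumours. In GFP NSCs it was 11.48 (E16C), 11.49 and 11.06 (P0C sorted and unsorted) and 11.94 (P0F), a fall of 0.90 in tumours (SE 0.19, limma adjusted p = 0.00968). Only E16C tumour 1 lay within the range of the GFP NSCs. Ndufs8, an iron-sulfur subunit of complex I, was 10.70, 10.16 and 10.12 (E16C), 10.62, 10.22 and 10.32 (P0C) and 10.45, 10.31 and 10.29 (P0F) in tumours. It was 11.30, 10.87, 10.83 and 11.40 in GFP NSCs, a fall of 0.78 (SE 0.18, limma adjusted p = 0.0128) without overlap.

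Cox8a, with the 2 ETS matches in the promoter above, was 12.77, 12.86 and 12.74 (E16C), 12.50, 12.62 and 12.87 (P0C) and 12.12, 12.33 and 12.67 (P0F) in tumours, against 13.04, 13.26, 13.20 and 13.42 in GFP NSCs. It fell by 0.61 (limma adjusted p = 0.0255), again without overlap. Of complex II, the membrane anchors Sdhc and Sdhd fell by 0.79 and 0.68 (limma adjusted p = 0.029 and 0.0296), while Sdha (-0.15) and Sdhb (0.06) were not called. The other members that fell were Atp5g1 (-0.85), Ndufb4 (-0.72), Ndufb8 (-0.65), Ndufa13 (-0.53), Cox7a2 (-0.48) and Atp5d (-0.46). Not called were Cox6a1 (-0.38), Cox4i1 (-0.17), Uqcrc1 (-0.09), Uqcrc2 (-0.36), Uqcrfs1 (-0.43), Ndufs1 (0.18), Ndufv1 (-0.33), Atp5a1 (-0.11), Atp5b (-0.15), Ndufa4 (-0.30) and Cycs (-0.12).

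The number of falls depended on scaling and on single arrays. Shares of all genes called in these refits are not given, so member calls lost and calls lost over all genes cannot be told apart. With arrays centred on their medians 3 were lower (Atp5md, Ndufb8 and Ndufs8), and after quantile normalization the same 3 genes were lower and Cox4i2 was higher. The count was 5 without the E16C GFP NSCs, 3 without the sorted and 5 without the unsorted P0C GFP NSCs, 4 without the P0F GFP NSCs and 15 without E16C tumour 3. With the 2 P0C GFP arrays averaged into 1 it was 3, the same Atp5md, Ndufb8 and Ndufs8. Without the forebrain arrays it was 0, with a median of -0.13 in place of -0.31, and without the P0F GFP NSCs alone the median was -0.16 (range -0.39 to -0.16 when an array was left out). Tumours and cultures also differed in their cells, which was not tested for its part in the result. Endothelial markers were higher in tumours in 6 of 7 (Rgs5 2.62, Cdh5 2.39) and microglia markers in 6 of 7 (Tyrobp 2.88, Csf1r 1.90). Astrocyte markers were higher in only 2 of 6 (Gfap 3.07, Aqp4 1.40) and oligodendrocyte markers in 1 of 6 (Mbp 2.81).

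Genes around the chain are given beside the 7.34% of all genes that were lower and the 4.31% that were higher, with no test between lists. Of the citric acid cycle and pyruvate dehydrogenase, 3 of 16 were lower (Dld -0.83, Cs -0.68, Idh3b -0.53) and 0 higher, and the outer membrane porin Vdac1 was lower (-0.72). Of glycolysis, Hk2 (1.06) and Pfkl (1.02) were higher and Tpi1 (-1.18) lower among 13. The mitochondrial ribosome had 1 of 73 higher and 3 lower. Further lower genes were the import subunit Timm17b (-1.11), the assembly factors Uqcc2 (-1.13), Cox20 (-0.74) and Ndufaf3 (-0.77), and Atpif1 (-0.40), the inhibitor of the ATP synthase.

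Cultured cells grown out of the 3 kinds of orthotopic tumour were set against the 9 tumours in the same model. The titles of the cells name tumour 1 of each origin as their source, so cells and the tumours numbered 1 may share a source. Atp5md was higher in the cells, at 11.53 (E16C), 11.35 (P0C) and 11.56 (P0F), above the 9.98 to 11.25 of the tumours (difference 0.86, SE 0.21, limma adjusted p = 0.0386). It was the 1 member called (1.49% of 67, where 3.77% of 12066 genes were called and 1.78% were higher), and 10 members had an unadjusted p under 0.05 (19.6% of all genes). Atp5md was thus lower in tumours than in GFP NSCs and than in tumour cells, and these comparisons share the tumours. Cycs was 10.28, 10.52 and 11.06 in the cells, above the 9.36 to 10.21 of the tumours, and did not pass (0.83, limma adjusted p = 0.213), nor did Ndufs8 (0.68, limma adjusted p = 0.0664). The groups did not overlap in 4 members, all higher in cells (3.9% of all genes): Atp5md, Cycs, Atp5d (0.37) and Ndufs7 (0.27). The member median was 0.11, beside 0.05 over all genes, and ran from 0.03 without the P0F cells to 0.30 without the E16C cells when an array was left out. Without the forebrain arrays it was -0.03. It was also raised by more than 1.5 times without E16C tumour 3 (0.18), P0C tumour 1 (0.16) or P0C tumour 3 (0.18). The call of Atp5md was lost after quantile normalization, without the forebrain arrays, and when a single array was left out in 7 cases: the E16C cells (limma adjusted p = 0.112), P0C tumour 2, the P0C cells, each P0F tumour and the P0F cells. Without the E16C cells Ndufs8 passed in its place (0.89, limma adjusted p = 0.0485). Without P0C tumour 1 Ndufs8 passed as well, and without P0C tumour 3 Ndufa2 did, for 2 calls each. Without all 3 tumours numbered 1 the calls were Atp5md and Ndufs8. Cells held less of microglia markers (6 of 7 lower) and endothelial markers (4 of 7). Astrocyte markers were lower in 2 of 6, among them Gfap (-4.24), and cell cycle markers higher in 2 of 9, Bub1 (1.38) and Plk1 (1.23).

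N-myc NSCs were set against GFP NSCs, with 2 and 4 arrays. No member was called by limma, where 0.00832% of 12019 genes were called in all, and 3 had an unadjusted p under 0.05 (8.89% of all genes): Cox4i1 (-0.57), Atp5e (-0.60) and Cox6a1 (-0.53). Cox4i1 was 10.47 and 10.09 in E16C and P0C N-myc NSCs and 10.64 to 10.86 in GFP NSCs. In 12 members both N-myc arrays lay below the 4 GFP arrays (7.85% of all genes) and in 0 above (8.5%). The median difference was -0.08 over the members and -0.01 over all genes. It was 0.00 without the P0F GFP NSCs, -0.16 without the sorted and -0.18 without the unsorted P0C GFP NSCs, and -0.05 without the E16C GFP NSCs.

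Cycs differed widely between the GFP cultures themselves, a pattern picked out after the values were seen. It was 8.92 and 8.96 in the sorted and unsorted P0C GFP NSCs, but 10.67 in E16C and 10.87 in P0F GFP NSCs, and 10.21 and 10.32 in E16C and P0C N-myc NSCs. Each origin has a single culture apart from the P0C pair, so no test was made. The cells grown out of a GTML tumour had a members' mean of 10.71, with Cycs at 10.55, Atp5md at 11.88 and Atp5g1 at 13.19.

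**Figure D5:**
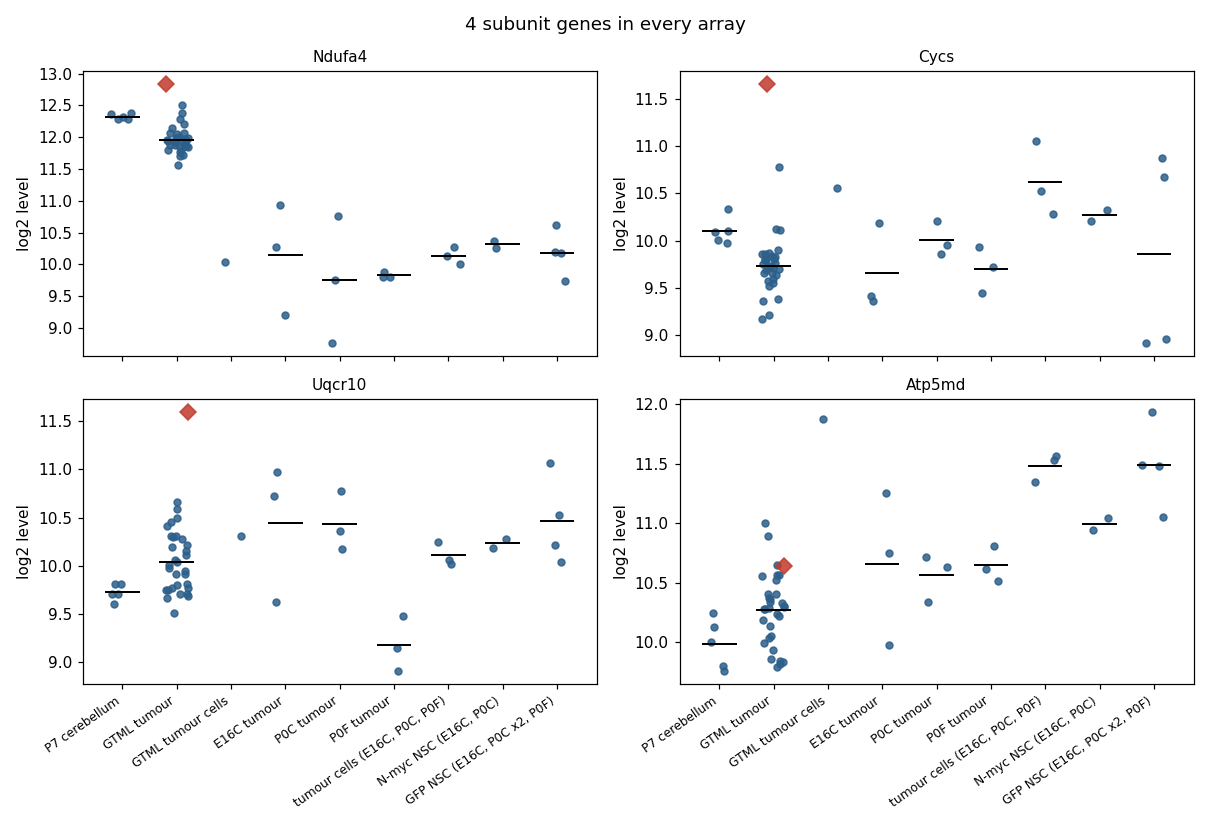
Log2 levels of Ndufa4, Cycs, Uqcr10 and Atp5md in every array by sample group, with group means without tumour 22 as lines. Ndufa4 is at 11.56 or above in GTML tumours and P7 cerebella and at 10.94 or below in all other arrays, Uqcr10 is lowest in P0F tumours (8.91 to 9.48), and Atp5md is higher in cultured cells than in most orthotopic tumours.

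Levels of orthotopic and GTML tumours are given side by side only, since labelling and tumour model cannot be told apart. Of 66 members, 7 were lower by at least 1 log2 unit in the 9 orthotopic tumours than in the 31 GTML tumours without number 22, and 7 were higher; of all 11996 genes, 1030 and 1090 were. Ndufa4 showed the widest gap, at a mean of 9.91 against 11.96, and ranged over 8.77 to 10.94 in all transplanted tumours and cultures. Uqcrc1 stood at 10.59 against 12.07 and Ndufb7 at 8.96 against 10.41. On the other side Ndufa2 stood at 9.33 against 7.54, Ndufb4 at 10.67 against 8.97 and Ndufc2 at 12.28 against 10.61. The GTML tumour cells, whose labelling the labels leave unclear, had Ndufa4 at 10.04, Ndufa2 at 10.52 and Ndufb4 at 11.54, on the side of the transplant series in all 3. The median difference over the members was -0.08, beside -0.05 over all genes.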

How the data were processed

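RNA from 56 samples was labelled and hybridised to Affymetrix whole-transcript arrays. The authors deposited log2 values made with RMA on mm9, per the submitters' processing notes; the sources at hand give no version or settings. The table held 17831 probes, 15620 with a single symbol, 1370 with several and 841 with none, and 31111 blank cells (3.12%), left missing. The highest correlation between any 2 arrays was 0.997, and no samples were merged. Groups follow the titles, because cell type tags of some E16 samples are out of step with them. For the 6 members with 2 probes, the second probe correlated with the one used at 0.94 to 1.00.

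The test took in genes above 6.30 (percentile 25 of all values) on no fewer arrays than the smaller group of a comparison holds. Linear models over all such genes were moderated with limma 3.58.1 in R 4.3.3 (labels read with jsonlite 2.0.0), with Benjamini-Hochberg adjustment over all genes at 0.05. GTML tumours were fitted with P7 cerebella, orthotopic tumours together, and the 18 transplanted tumours and cultures with origin as a term. Origins with a single array were assumed to vary like the others. The models were tested on simulated data.

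The members and lists were chosen with earlier results of these data known. Named genes were up to 4 called members of largest rise and of largest fall per complex, a fixed set (Cycs, complex II, core subunits and paired tissue forms), up to 3 called genes each way per other list, and the 5 genes closest to the members' mean. Values of tumour 22, of members without overlap and of other exceptions were chosen after the data were seen. Alternatives were filters, probe means, quantile normalization, centred arrays, trend and robust settings, filled blanks, replicate blocks and arrays left out.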

Additional observations from a re-analysis of the deposited data

Results flagged for a closer look

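In P7 cerebella, 2 of the 16 values looked at had an array far from the other 4, and chance alone marks about 1 group in 20. Cox7b was 10.84 in P7 cerebellum 3, against 11.05 to 11.13 in the others. Ndufv3 was 8.73 in the same cerebellum, against 8.45 to 8.52 in the others. Both genes were called higher in GTML tumours.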

How the results depend on the processing

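Medians over the members moved by less than the spread between replicates in all 104 alternatives computed. That spread was 0.20 to 0.24. It is a loose limit, wider than the medians for GTML tumours against P7 cerebella (0.08), P0C against E16C tumours (0.02), N-myc against GFP NSCs (-0.08) and tumour cells against tumours (0.11). A sign turned for P0C against E16C tumours (-0.05 to 0.13 when a tumour was left out, -0.05 with centred arrays). Signs also turned for tumour cells against tumours (-0.03 without forebrain arrays) and for N-myc against GFP NSCs (0.00 without the P0F GFP NSCs). Of the counts of calls, 178 stayed within 1.5 times the value given and 30 did not. Apart from the fit without tumour 22 alone, counts of alternatives come without the share of all genes called. Of the single members, 410 values kept their call and 109 lost it, none with a change of sign. For GTML tumours against P7 cerebella, centred arrays gave 22 higher and 0 lower, 27 and 4 with tumour 22 also left out. Without tumour 22 alone 15 were higher and 8 lower, and without tumours 20, 22, 30 and 31, 18 and 11. Leaving out 1 cerebellum gave 7 to 9 higher and 3 to 5 lower, with 7 higher without cerebellum 3. Replicate numbers 1 to 5 fitted as a block gave 18 higher and 5 lower, and the same 10 arrays without a block gave 18 and 6. Same-numbered arrays correlated at -0.20 to 0.21, and in some cases the same-numbered array was the most correlated. Such values, between arrays of different tissues or origins, cannot decide whether the numbers pair samples. The block gave 0 calls in both comparisons between origins.

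P0C against E16C tumours had 0 to 1 higher when a tumour was left out. Orthotopic tumours against GFP NSCs had 3 lower and 1 higher after quantile normalization, 3 lower with centred arrays, 3 with the P0C GFP arrays averaged, 0 without forebrain arrays, and 3 to 15 when an array was left out. Tumour cells against tumours had 0 higher after quantile normalization, 0 without forebrain arrays, 2 without the tumours numbered 1 and 0 to 2 when an array was left out. The causes were not tested. No depth or detection value comes with these arrays, and differences from levels under 6.30, such as those of Cox8b, may understate those of the transcripts.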
